A study of Mus musculus with 2 samples.

Results

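Smooth muscle cells and pericytes wrap the blood vessels of the adrenal gland, and 10 genes that mark these mural cells were described here out of 55536 genes measured. The rule lists them by name, and the list was drawn up with earlier results of these data known, so counts over its members are descriptions. They comprise 6 contractile genes (Acta2, Myh11, Tagln, Cnn1, Des and Mylk) and 4 pericyte genes (Rgs5, Pdgfrb, Notch3 and Cspg4). All 10 were found in the gene tables of both libraries, together with 36 annotated transcripts. The libraries were total RNA-seq of whole adrenal glands from 2 female mice of strain B6CASTF1/J, the cross of a B6 and a CAST parent, aged 8 to 10 months. Nothing in the labels describes a treatment, and both animals formed 1 group. Each library started from 300 ng of RNA with ERCC spike-in RNA, and the linked manual describes a directional kit. The libraries are called replicate 2 (animal 3) and replicate 1 (animal 1). Their donor code is the same, but animal number and biosample differ, and they were taken as different mice on that basis.

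In smooth muscle, calcium activates myosin light chain kinase, which phosphorylates the light chains of myosin and lets its heads pull on actin filaments. Serum response factor and its coactivators bind CArG boxes in the promoters of many contractile genes. Pericytes sit on capillaries, are recruited by PDGF-B from the endothelium acting on PDGFR-beta, and carry Notch3, the proteoglycan NG2 (Cspg4) and the G-protein regulator Rgs5. None of these genes is restricted to 1 cell type: Acta2 and Tagln are also made by pericytes and myofibroblasts, Des by striated muscle, Pdgfrb by fibroblasts, and Cspg4 by glial precursors. In RNA of a whole gland, fewer mural cells and less RNA per mural cell cannot be told apart.

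Depth was 34319787 expected counts in replicate 2 and 40453707 in replicate 1, and nuclear protein-coding genes held 35.8% and 35.4% of TPM (transcripts scaled to a common total per library). Genes of the labelled tissue were abundant: the 5 cortex markers summed to 23106 TPM in replicate 2 and 22597 TPM in replicate 1, and the 4 chromaffin markers to 1424 and 1519 TPM. The ratio between animals is replicate 2 over replicate 1, taken on counts scaled by TMM with 0.5 added. Its 95% interval is exact and covers counting error only, and the deposited TPM bounds cover the estimation within 1 library. With 1 library on each side of this ratio no test was possible, so values are described without p-values. All 10 genes lay above the limit of 3 counts in both libraries, the lowest being Cnn1 with 11 counts in replicate 2.

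All 10 genes were detected and all 10 had the lower scaled count in replicate 2, by amounts that ran from 1.09-fold for Des to 3.09-fold for Cnn1. That direction held under every scaling tried. Across the 17751 genes that averaged 10 counts or more, 49.4% were lower in replicate 2. Acta2, Cnn1 and Myh11 were lower by 2-fold or more, which was 3 of 10 against a background of 2.14% of genes. No member was higher by 2-fold or more, against a background of 4.21%, and in either direction 6.34% of genes were that far apart. The median log2 ratio of the 10 genes was -0.54, and that of the 17751 genes was 0.00 with quartiles at -0.16 and 0.24. Deposited TPM bounds that did not overlap, with the lower value in replicate 2, were found for Acta2, Myh11, Tagln, Rgs5 and Cspg4, 5 of 10 against a background of 7.14%.

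**Figure D1:**
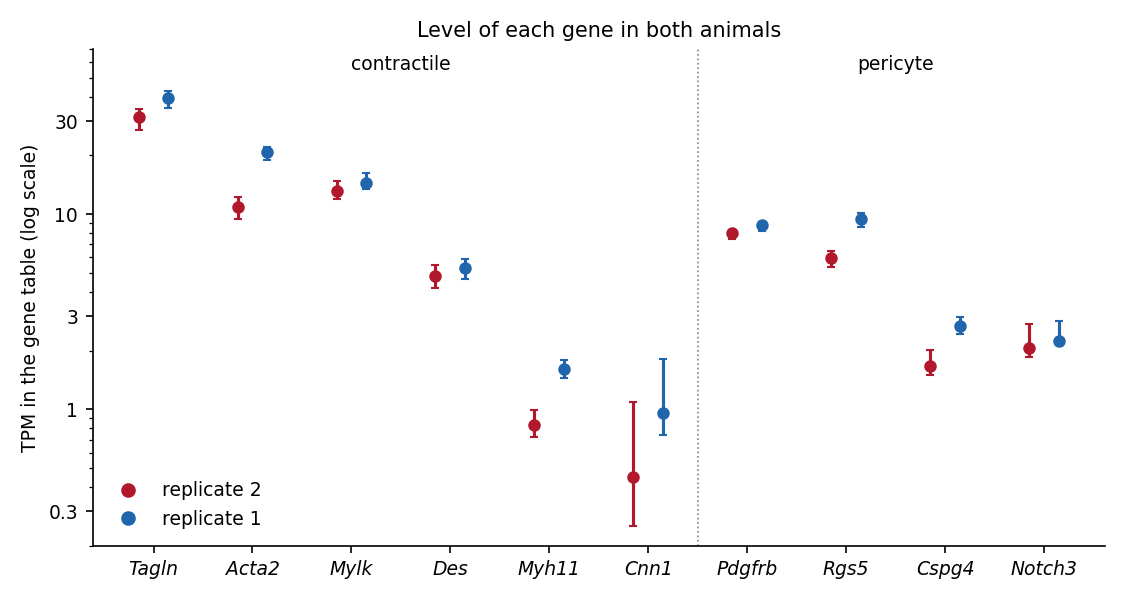
Level of each gene in TPM on a log axis, with replicate 2 in red to the left of replicate 1 in blue and the contractile genes left of the dotted line. Points are deposited values and bars run between the deposited TPM bounds of that library. Tagln, with 31.33 TPM in replicate 2 against 39.25 TPM in replicate 1, is the highest, and Cnn1, the lowest, has the widest bars for its level.

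Filament and actin-associated genes held the highest and the lowest levels of the set. Tagln (ENSMUSG00000032085.5) encodes transgelin (SM22), an actin-binding protein of smooth muscle, at chr9:45929619-45936058 on the minus strand of mm10. It had 31.33 TPM in replicate 2, with bounds of 27.1 to 34.6, and 39.25 TPM in replicate 1, with bounds of 34.9 to 42.6. The log2 ratio was -0.37 (interval -0.49 to -0.26), a 1.30-fold lower value in replicate 2, and the bounds of the animals lay just apart. Its mean of 35.3 ± 5.60 TPM (SD, n = 2) was above that of 90.7% of protein-coding genes. Tagln overlaps 108 bases of Pcsk7 on the opposite strand, which had 1235 counts in replicate 2 and 1063 in replicate 1, and the antisense gene Gm48529, with 47.0 and 42.0 counts. The sources used here do not give whether reads were counted by strand, so part of the Tagln counts is uncertain.

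Acta2 (ENSMUSG00000035783.9), the smooth muscle alpha-actin of the thin filament, lies at chr19:34241090-34255590 on the minus strand. It had 587 counts and 10.93 TPM in replicate 2, against 1365 counts and 20.80 TPM in replicate 1. The bounds were 9.42 to 12.2 TPM in replicate 2 and 18.9 to 22.1 TPM in replicate 1, so the animals did not overlap. The log2 ratio was -1.06 (interval -1.20 to -0.92), and of the 12645 genes with a mean count of 100 or more, 0.569% had a lower ratio. On deposited TPM the log2 ratio was -0.93, which is under 2-fold.

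The RefSeq promoter window of Acta2 holds no exact CArG box, and 1.63% of 32851 RefSeq promoters hold one. Each window spans 250 bases before and 50 after a RefSeq start in GRCm38.p6, read on both strands. With up to 1 mismatch allowed, a search added after the data were seen, Acta2 had matches at positions -84 and -34 from the start, and 9.98% of all promoters had at least 1. The CArG elements described in the Acta2 promoter are known to depart from the consensus. They are shown because they are the serum response factor motif of this contractile gene, on the minus strand at chr19:34255438-34255467 and chr19:34255388-34255417, with the CArG-like letters in capitals.
Acta2 promoter site 1: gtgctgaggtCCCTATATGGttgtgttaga
Acta2 promoter site 2: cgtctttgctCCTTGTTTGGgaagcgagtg

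The second of these overlaps a TGGGAA match, the core of RBPJ sites, at -27, a motif that 25.6% of promoters hold. GENCODE M21 places the Acta2 start 217 bases upstream of the RefSeq start, so both sites lie inside the first exon of its longer model. A TEAD-type CATTCC motif was found in the windows of Acta2 and Mylk, 2 of 7 members with a window, and in 14.7% of all promoters. No member had TATAAA, which 13.6% of promoters hold. GGGCGG, an Sp1-type motif, was found for Des, Notch3 and Cspg4, 3 of 7, and in 35.7% of all promoters. No exact CArG box was found in any of the 7 windows (Acta2, Mylk, Cnn1, Des, Notch3, Rgs5 and Cspg4).

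Cnn1 (ENSMUSG00000001349.5) encodes calponin, which binds actin and restrains the myosin ATPase in differentiated smooth muscle, at chr9:22099216-22109630 on the plus strand. It was the lowest of the 10, with 11 counts and 0.45 TPM in replicate 2, against 39 counts and 0.96 TPM in replicate 1. The deposited bounds overlapped, at 0.251 to 1.09 TPM in replicate 2 and 0.741 to 1.80 TPM in replicate 1. The log2 ratio of -1.63 had the widest interval of the 10 (-2.79 to -0.68), since it rests on few counts.

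The motor and its kinase differed both in level and in ratio. Myh11 (ENSMUSG00000018830.10), the smooth muscle myosin heavy chain and the most specific of the contractile markers, lies at chr16:14194535-14291372 on the minus strand. It had 176 counts and 0.83 TPM in replicate 2, with bounds of 0.722 to 0.989, and 400 counts and 1.60 TPM in replicate 1, with bounds of 1.45 to 1.78. The animals did not overlap and the log2 ratio was -1.03 (interval -1.29 to -0.77). Its mean of 1.22 ± 0.544 TPM (SD, n = 2) was above 45.5% of protein-coding genes, so this marker sat near the middle of the range while Tagln sat near the top. On deposited TPM its log2 ratio was -0.95.

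Mylk (ENSMUSG00000022836.11) encodes myosin light chain kinase, on the plus strand at chr16:34745210-35002420. It had the most counts of the 10, 2068 in replicate 2 and 2883 in replicate 1, and 13.07 TPM (bounds 11.9 to 14.8) in replicate 2 against 14.41 TPM (bounds 13.4 to 16.2) in replicate 1. The bounds overlapped. The log2 ratio was -0.32 (interval -0.41 to -0.24) on scaled counts and -0.14 on deposited TPM. The deposited effective length differed between the libraries, 4785 bases in replicate 2 and 5142 in replicate 1. Its antisense overlaps held at most 6 counts in replicate 2 and 4 in replicate 1 in the gene table, and at most 20.4 and 15.4 in the index-based table.

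Des (ENSMUSG00000026208.9) encodes desmin, the intermediate filament of smooth and striated muscle, at chr1:75360329-75368579 on the plus strand. It had 426 counts and 4.82 TPM in replicate 2 and 518 counts and 5.29 TPM in replicate 1, with overlapping bounds of 4.20 to 5.47 and 4.65 to 5.92 TPM. Des was the only member whose interval of the log2 ratio reached past 0 (-0.13, interval -0.32 to 0.06). Of 14 striated muscle markers, 6 had a mean count of 10 or more, and the list summed to 6.98 TPM in replicate 2 and 6.79 TPM in replicate 1. Myh4 was at 0 in both libraries. The measured markers went both ways: the most abundant, Myl1, had 66 counts in replicate 2 and 115 in replicate 1 and Mylpf had 12 and 17, whereas the cardiac myosin gene Myh6 had 56 and 0, Ttn 156 and 28, Mb 15 and 7, and Tnnt2 40 and 35. The part of striated muscle RNA in the Des value was not tested.

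Of the pericyte genes, the 2 receptors were close between the animals, and Rgs5 and Cspg4 stood further apart. Pdgfrb (ENSMUSG00000024620.11), the receptor that PDGF-B acts on, lies at chr18:61045150-61085061. It had 8.02 TPM in replicate 2 (bounds 7.44 to 8.27) and 8.76 TPM in replicate 1 (bounds 8.20 to 8.99), so the bounds just overlapped. The log2 ratio was -0.21 (interval -0.31 to -0.11) on 1406 and 1808 counts. Notch3 (ENSMUSG00000038146.8), the Notch receptor of mural cells, lies at chr17:32120820-32166852 on the minus strand. It had 2.07 TPM in replicate 2 (bounds 1.86 to 2.74) and 2.23 TPM in replicate 1 (bounds 2.13 to 2.82), which overlapped. Its log2 ratio was -0.34 (interval -0.51 to -0.17) on scaled counts and -0.11 on deposited TPM, with effective lengths of 7132 bases in replicate 2 and 7916 in replicate 1. An antisense gene, Gm17276, covers 21024 bases of the locus and had 248 counts in replicate 2 and 166 in replicate 1, against 489 and 688 for Notch3, so the Notch3 counts are uncertain.

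Rgs5 (ENSMUSG00000026678.10), a GTPase activator that damps signalling of Gq- and Gi-coupled receptors, lies at chr1:169655501-169695813 on the plus strand. It had 738 counts and 5.93 TPM in replicate 2, with bounds of 5.34 to 6.51, and 1346 counts and 9.42 TPM in replicate 1, with bounds of 8.58 to 10.1. The animals did not overlap, and the log2 ratio was -0.71 (interval -0.84 to -0.58). Cspg4 (ENSMUSG00000032911.6), the membrane proteoglycan NG2, lies at chr9:56865033-56899870 on the plus strand. It had 377 counts and 1.67 TPM in replicate 2, with bounds of 1.49 to 2.01, and 689 counts and 2.67 TPM in replicate 1, with bounds of 2.43 to 2.96. The animals did not overlap here either, and the log2 ratio was also -0.71 (interval -0.90 to -0.53). The share of genes with a mean count of 100 or more that had a lower ratio was 2.00% for Rgs5 and 1.99% for Cspg4. The 3 oligodendrocyte precursor markers summed to 0.0700 TPM in replicate 2 and 0.0800 TPM in replicate 1, with Olig2 at 0 in both. Those precursors belong to the central nervous system, so this says nothing about the source of Cspg4 in the gland. The 5 Schwann and glia markers summed to 5.37 TPM in replicate 2 and 8.89 TPM in replicate 1. The part of glia in the Cspg4 value was not tested.

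The Rgs5 promoter window held none of the 5 motifs searched named above, which says only that these letters are not in it. RefSeq and GENCODE place the Rgs5 start at the same base. The 250 bases before it, chr1:169655251-169655500 on the plus strand, are shown as the pericyte counterpart of the Acta2 sites, from RefSeq in GRCm38.p6.
Rgs5 promoter: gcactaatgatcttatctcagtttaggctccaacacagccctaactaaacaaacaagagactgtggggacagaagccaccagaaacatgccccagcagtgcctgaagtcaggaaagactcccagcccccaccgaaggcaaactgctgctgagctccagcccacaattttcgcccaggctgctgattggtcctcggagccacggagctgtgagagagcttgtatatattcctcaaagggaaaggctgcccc

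**Figure D2:**
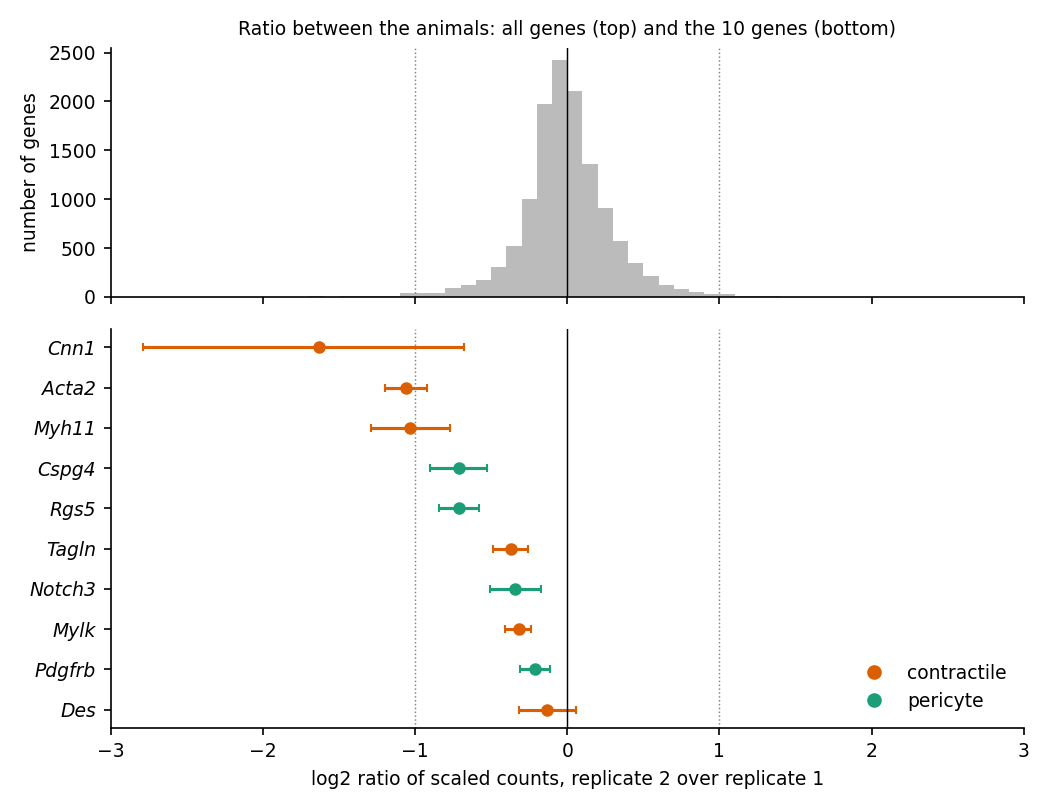
Log2 ratio of scaled counts, replicate 2 over replicate 1. The upper panel counts all genes with a mean count of 100 or more by ratio, and the lower panel gives the 10 genes with their 95% counting interval, contractile genes in orange and pericyte genes in green. Dotted lines mark 2-fold. All 10 points lie left of 0, from -1.63 for Cnn1 to -0.13 for Des, and contractile and pericyte genes are interleaved.

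Contractile genes were higher than pericyte genes as a sum in both animals. The 6 contractile genes summed to 61.4 TPM in replicate 2 and 82.3 TPM in replicate 1, and the 4 pericyte genes to 17.7 and 23.1 TPM. The ratio of the sums was 3.47 in replicate 2 and 3.57 in replicate 1 (3.52 ± 0.0663, SD, n = 2), so it was nearly the same in both glands while each sum was lower in replicate 2. Tagln was the largest part of the contractile sum: without Tagln, a choice made after seeing the data, the ratio was 1.70 in replicate 2 and 1.87 in replicate 1. The median contractile gene had 7.88 TPM in replicate 2 and 9.85 TPM in replicate 1, and the median pericyte gene 4.00 and 5.71 TPM. The ratio of these medians was 1.97 in replicate 2 and 1.72 in replicate 1. It was 1.21 and 0.926 without Acta2, and the same without Tagln. The higher contractile median thus rested on these genes and turned in replicate 1. In the index-based table the ratio of medians was 1.64 and 1.16 without Acta2, and the same without Tagln, so it did not turn there. All 4 pericyte genes, but 4 of the 6 contractile genes, reached 1 TPM in both animals, since Myh11 was under it in replicate 2 and Cnn1 in both.

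In order of mean level the genes ran Tagln, Acta2, Mylk, Pdgfrb, Rgs5, Des, Cspg4, Notch3, Myh11 and Cnn1. The ranges of the animals overlapped for the neighbours Acta2 and Mylk, Pdgfrb and Rgs5, Cspg4 and Notch3, and Myh11 and Cnn1, and were separate for the other 5 pairs of neighbours. In replicate 2 Mylk was above Acta2 and Notch3 above Cspg4, and in replicate 1 Rgs5 was above Pdgfrb. The index-based table kept this switch only for Acta2 and Mylk: there Pdgfrb was above Rgs5 and Notch3 above Cspg4 in both animals. In replicate 2 of that table Des was above Rgs5, and Cnn1 (0.694 TPM) was just above Myh11 (0.688 TPM). The step from Tagln down to Acta2, and that from Mylk down to Pdgfrb, held in both animals and both tables.

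The ratio between the animals did not separate the contractile from the pericyte genes. The median log2 ratio was -0.70 for the contractile genes (range -1.63 to -0.13) and -0.52 for the pericyte genes (range -0.71 to -0.21), a difference of -0.18. That difference turned to 0.15 when genes with a mean count under 100 were left out, which removes Cnn1. The split ran within each group: Acta2, Myh11 and Cnn1 were 2-fold or more lower in replicate 2 and Tagln, Mylk and Des were not, and Rgs5 and Cspg4 were 1.5-fold or more lower and Pdgfrb and Notch3 were not. At 1.5-fold the count was 3 of 6 contractile and 2 of 4 pericyte genes, against a background of 6.12%.

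Of the 36 transcripts, 21 were protein-coding, 10 retained an intron and 5 were other processed transcripts. For 9 of the 10 genes the same transcript had the highest TPM in both animals and in both transcript tables, the one estimated from alignments and the one estimated from reads and a transcript index. Cnn1 was the exception, with Cnn1-202 highest in replicate 2 and Cnn1-205 highest in replicate 1 in both tables. Those 2 transcripts rest on 1.95 counts for Cnn1-202 in replicate 2 and 13.4 counts for Cnn1-205 in replicate 1, and the most counts in the alignment-based table went to Cnn1-201 in both animals. For Pdgfrb, Rgs5 and Notch3 the highest transcript held 89.4% or more of the gene's TPM in every library and table.

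**Figure D3:**
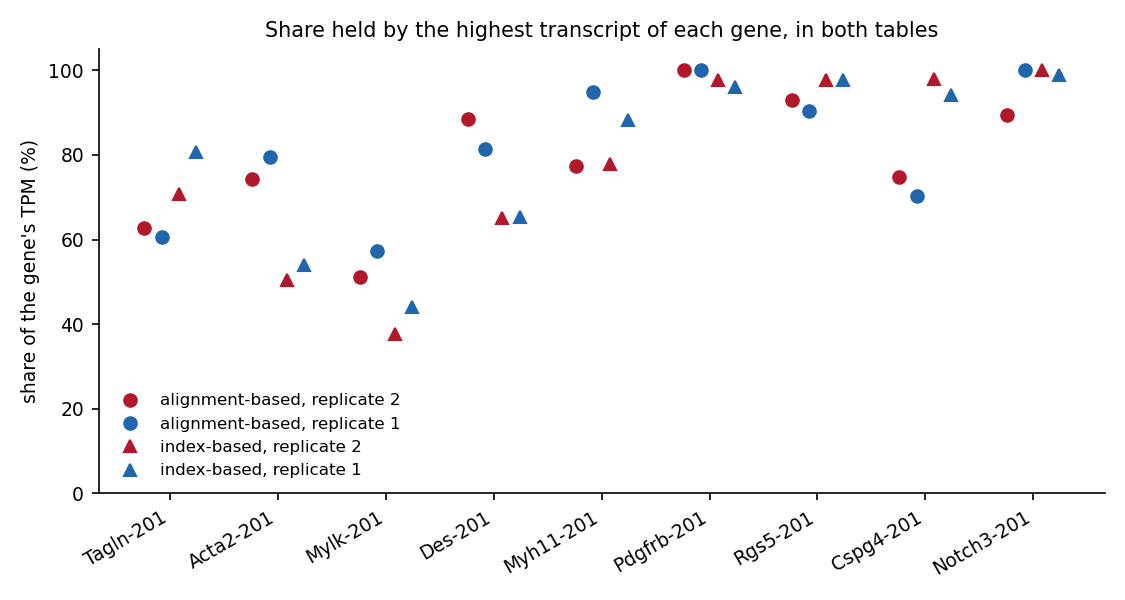
Share of the gene's TPM, in percent, held by the highest transcript of the 9 genes for which it was the same everywhere. Circles are the alignment-based and triangles the index-based table, with replicate 2 in red and replicate 1 in blue. For Acta2-201 the tables stand further apart than the animals, with 74.3% and 79.5% in the first table and 50.4% and 53.9% in the other.

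Acta2 reads were divided between Acta2-201, the full coding transcript of 9 exons, and the shorter Acta2-202 of 7 exons. Acta2-201 had 8.13 TPM in replicate 2 (bounds 7.09 to 8.89) and 16.53 TPM in replicate 1 (bounds 15.2 to 17.4) in the alignment-based table, so the difference of the gene was also that of its main transcript. Acta2-202 had 0.344 of the level of Acta2-201 in replicate 2 and 0.258 in replicate 1 in that table, but 0.983 and 0.852 in the index-based table. The share given to the short transcript thus differed more between the tables than between the animals. For Tagln the tables disagreed in direction: the short Tagln-202 had a log2 ratio of -0.47 in the alignment-based and 0.35 in the index-based table, while Tagln-201 had -0.36 and -0.47.

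Besides the kinase, the Mylk locus makes telokin, a small smooth muscle protein that binds myosin and is transcribed from an internal promoter. The annotated transcript of this form is Mylk-203, with 3 exons at chr16:34994807-35001363. It starts 209886 bases after the start of Mylk-201, and 267 bases of its first exon are not in Mylk-201. Its 477 coding bases open in the frame of the kinase, after 5373 coding bases of Mylk-201. The first 60 coding bases, at chr16:34995116-34995175 on the plus strand from GENCODE M21, are shown because they are coding in both transcripts, and the start codon of Mylk-203 is in capitals.
Mylk-203 start of the reading frame: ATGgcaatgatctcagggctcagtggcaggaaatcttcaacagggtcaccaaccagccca

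Mylk-203 had 2.99 TPM in replicate 2 (bounds 2.10 to 3.75) and 4.68 TPM in replicate 1 (bounds 3.74 to 5.59), so the bounds overlapped slightly. Mylk-201 had 6.69 TPM in replicate 2 (bounds 6.11 to 6.97) and 8.26 TPM in replicate 1 (bounds 7.61 to 8.50), which did not overlap. The log2 ratio was -0.73 for Mylk-203 and -0.38 for Mylk-201, with -0.82 and -0.42 in the index-based table. Mylk-201, with 32 exons and 5850 coding bases, was the only coding transcript annotated for the kinase. Shorter forms of the kinase could not be told apart from it. Counts given to Mylk-203 need not come from the bases that Mylk-201 lacks, and the values cannot be assigned to smooth muscle cells. Telokin over kinase was 0.447 in replicate 2 and 0.567 in replicate 1 by alignment, and 0.617 and 0.815 by index. This ratio was lower in replicate 2 in both tables, which rest on the same 2 libraries. The retained-intron transcript Mylk-207 went the other way, with 1.22 TPM in replicate 2 and 0.70 TPM in replicate 1, but its bounds overlapped (0.654 to 1.82 and 0.225 to 1.26). Its log2 ratio of 0.73 by alignment was 0.04 by index.

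Smooth muscle myosin is made in forms that differ by small exons, 1 near the nucleotide-binding site of the head (the SM-B insert) and 1 that ends the tail early (the SM2 tail). Myh11-201 has neither, Myh11-204 has an extra exon of 21 bases at chr16:14248580-14248600, and Myh11-202 an extra exon of 39 bases which ends the reading frame after 28 coding bases. Both are on the minus strand, from GENCODE M21 in mm10. They are printed because reads over these bases separate the forms. The annotated transcripts also end at different bases, Myh11-201 at 14194535, Myh11-204 at 14194648 and Myh11-202 at 14194900. The counts estimated for each form therefore need not come from the printed exons alone. Capitals mark the 21 bases of Myh11-204, and for Myh11-202 the 28 coding bases and the stop codon at chr16:14198058-14198088. The lower-case letters are the 15 bases that splicing joins to them.
Myh11-204 extra exon: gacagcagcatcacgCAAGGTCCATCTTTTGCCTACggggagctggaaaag
Myh11-202 extra exon: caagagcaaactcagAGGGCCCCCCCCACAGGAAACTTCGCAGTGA

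Myh11-201 held 77.5% of the gene's TPM in replicate 2 and 94.8% in replicate 1. The insert form Myh11-204 was given 39.2 counts in replicate 2 and 0 in replicate 1, and the tail form Myh11-202 was given 0 counts in replicate 2 and 20.0 in replicate 1. The index-based table gave the same pattern, with 42.5 and 0.000720 counts for Myh11-204 and 0 and 43.3 for Myh11-202. The deposited TPM bounds overlapped between the animals for both forms, 0.0475 to 0.382 in replicate 2 against an upper bound of 0.381 in replicate 1 for Myh11-204, so at this depth no difference in exon use could be shown.

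Cspg4-201, the full transcript, held 74.9% of the gene's TPM in replicate 2 and 70.4% in replicate 1 by alignment. Most of the rest was the retained-intron transcript Cspg4-204, with 0.39 TPM in replicate 2 and 0.73 TPM in replicate 1. The index-based table listed Cspg4-204 at 0 in replicate 2 and gave it 0.0370 TPM in replicate 1, so the tables did not give the same level for it. The main transcript had a log2 ratio of -0.67 in both tables.

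Other genes of the contractile apparatus had a median ratio nearer to 0 than that of the 6 contractile genes. Of 26 listed genes 24 had a mean count of 10 or more, and the median log2 ratio was -0.24. Single genes ran from -0.92 for Aoc3 to 0.84 for Pln, so the median does not stand for each gene. Of these 24, 17 were lower in replicate 2, against a background of 49.4%. None was 2-fold apart, against a background of 6.34%, and none in so short a list is near that share. The most abundant were the broadly expressed Myl6, a myosin light chain, with 249.68 TPM in replicate 2 and 277.15 TPM in replicate 1 (log2 ratio -0.15), tropomyosin Tpm1 with 55.32 and 52.59 TPM (0.00), and filamin Flna with 43.96 and 53.37 TPM (-0.33). The regulatory light chain of smooth muscle, Myl9, named here after its value was seen, had 12.80 TPM in replicate 2 and 20.18 TPM in replicate 1 (-0.74). Of 16 regulators, 15 were measured, none was 2-fold apart and the median was 0.02. Among them Tgfbr2 had 29.42 and 29.59 TPM (-0.12), Gata6 30.88 and 23.12 TPM (0.34) and Tead1 21.38 and 25.28 TPM (-0.43). Myocardin (Myocd), the smooth muscle coactivator of serum response factor and also named after its value was seen, had 10 counts in replicate 2 and 9 in replicate 1, while Srf itself had 13.54 and 11.71 TPM (0.06).

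Receptors and enzymes that set vascular tone were mostly lower in replicate 2, 16 of 17 against a background of 49.4%, with a median log2 ratio of -0.28. Over all genes, 2.14% were lower by 2-fold or more. The alpha-1A adrenergic receptor gene Adra1a was the 1 gene of that list at 2-fold, with 125 counts and 0.97 TPM in replicate 2 against 403 counts and 2.69 TPM in replicate 1 (-1.53), and its bounds did not overlap. The natriuretic peptide receptor Npr1 had 124.87 TPM in replicate 2 and 108.82 TPM in replicate 1 (0.09), the angiotensin receptor Agtr1a 87.54 and 97.52 TPM (-0.23) and the endothelin receptor Ednrb 14.59 and 17.55 TPM (-0.28). Agtr1a and Npr1 are known to be made by adrenal cortical cells as well, so their level does not stand for vessels.

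Further pericyte genes and the pathways of the pericyte receptors had medians nearer to 0 than the median of the 4 pericyte genes (-0.52). Of 16 further pericyte genes all were measured, 14 were lower in replicate 2, none by 2-fold, and the median log2 ratio was -0.19. Over all genes, 49.4% were lower and 2.14% were lower by 2-fold or more. Rgs4 had 17.89 TPM in replicate 2 and 16.78 TPM in replicate 1 (-0.07), Art3 11.00 and 22.19 TPM (-0.59) and Ndufa4l2 13.24 and 15.04 TPM (-0.20). In the PDGF pathway 12 of 12 genes were at 1 TPM or more in both animals. None was 2-fold apart, against a background of 6.34%, and the median was -0.05. Its most abundant genes were the adaptors Grb2 with 51.51 and 54.06 TPM (0.03) and Shc1 with 42.14 and 37.37 TPM (0.02), and the phosphatase Ptpn11 with 36.94 and 39.35 TPM (-0.18). The ligand gene Pdgfb, named after its value was seen, had 18.55 TPM in replicate 2 and 14.71 TPM in replicate 1 (0.21), the opposite direction to its receptor Pdgfrb.

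In the Notch pathway 13 of 18 genes were lower in replicate 2, 2 of them by 2-fold or more, with a median of -0.20. The background was 49.4% lower and 2.14% lower by 2-fold or more. The 2 genes at 2-fold were Hey1, with 40 counts in replicate 2 and 104 in replicate 1 (-1.21), and Hey2, with 21 and 52 counts (-1.14). Both are transcriptional targets of Notch and were named after their values were seen. The deposited TPM bounds overlapped for Hey1 and did not for Hey2. Other genes of the list were under 2-fold and were also named after their values were seen. Hes1 had 397 counts in replicate 2 and 396 in replicate 1 (0.16), Nrarp 69 and 88 (-0.19) and Heyl 198 and 358 (-0.70). The receptor Notch2 had 32.69 TPM in replicate 2 and 34.21 TPM in replicate 1 (-0.20), and the sheddase Adam10 16.97 and 17.66 TPM (-0.14). Of the RGS family 9 of 11 genes were measured, 1 was 2-fold lower in replicate 2 (Rgs1, with 15 and 45 counts, named after its value was seen), and the median was -0.18. Rgs2 had 63.87 and 61.84 TPM (-0.14) and Rgs3 9.61 and 10.33 TPM (-0.28). Rgs7, also named after its value was seen, had 193 counts in replicate 2 and 375 in replicate 1 (-0.80) with bounds that did not overlap, so Rgs5 (-0.71) was not alone in its family.

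**Figure D4:**
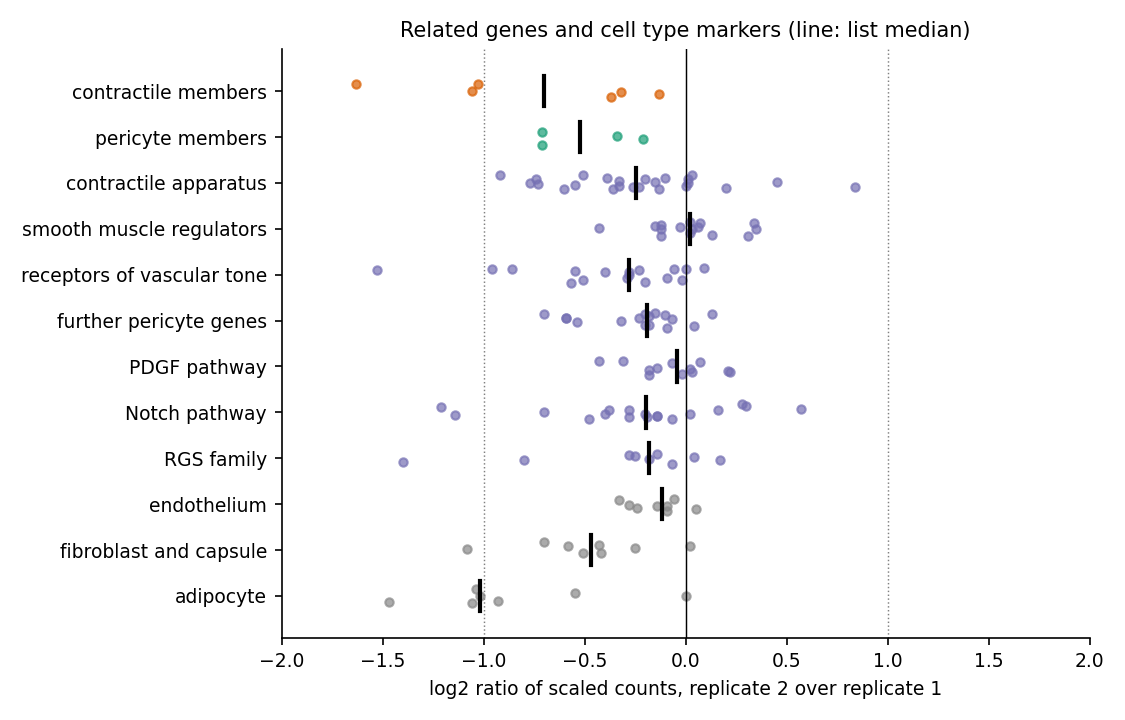
Log2 ratio of scaled counts, replicate 2 over replicate 1, for each gene with a mean count of 10 or more in each list, with a black line at the list's median. Contractile genes are orange, pericyte genes green, related lists purple and markers of other cell types grey. The contractile and pericyte medians (-0.70 and -0.52) lie between those of the adipocyte markers (-1.02) and the fibroblast and capsule markers (-0.47), and the endothelial markers are near 0 (-0.12).

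Markers of neighbouring cell types differed between the animals to different degrees, and with 2 libraries no likeness to the mural genes was measured. Over all genes, 2.14% were lower in replicate 2 by 2-fold or more. The 8 markers of endothelium, the other cells of the vessel wall, summed to 256 TPM in replicate 2 and 261 TPM in replicate 1. None was at 2-fold, and their median log2 ratio of -0.12 lay within the quartiles of all genes (-0.16 and 0.24). The 8 fibroblast and capsule markers summed to 146 TPM in replicate 2 and 196 TPM in replicate 1 (median -0.47), with 1 of 8 at 2-fold. The 7 adipocyte markers summed to 762 TPM in replicate 2 and 1448 TPM in replicate 1 (median -1.02), with 4 of 7 lower by 2-fold or more. The 5 Schwann and glia markers summed to 5.37 and 8.89 TPM (median -0.99), with 2 of 5 at 2-fold. No marker of these 4 lists was at 0 in both libraries, and their part in the lower values of the mural genes was not tested. The cortex and chromaffin markers had median log2 ratios of -0.06 and -0.14.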

How the data were processed

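Total RNA-seq of 2 adrenal glands was used, 1 library per animal, in 1 group. The members and lists were chosen with earlier results of these data known. Per the file headers, the authors deposited expected (estimated) counts, TPM, FPKM and TPM bounds per gene, and the same with the percent of each gene's expression per transcript. A second deposited transcript table gives estimated counts and TPM from a transcript index. The assembly is mm10 with GENCODE M21, per the deposited notes. The sources used here name neither the programs nor the use of strand.

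Expected counts were rounded for TMM scaling in edgeR 4.0.16 (R 4.3.3) on 17758 genes. DESeq2 1.42.0 size factors were an alternative. Ratios are replicate 2 over replicate 1 with 0.5 added. Depth was 34319787 and 40453707 expected counts, and the limit of 3 counts equals 0.0874 and 0.0742 CPM. Intervals and limits cover counting error only. Genes named from a list were its 3 highest by mean TPM and those 2-fold apart with 100 counts or more on average. The values of 1 gene that this rule names are not reported here. All else was done in Python 3.11.15 with scipy 1.17.1, pandas 2.3.3, numpy 2.4.6 and, for plots, matplotlib 3.10.9, and the scaling was tested on simulated data. Alternatives were FPKM, TPM rescaled over nuclear protein-coding genes, the index-based table, other scalings, pseudocounts, count minimums and fold limits, and each library left out. Promoters came from RefSeq in GRCm38.p6, which has a window for 7 of the 10 genes (not Myh11, Tagln or Pdgfrb).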

Additional observations from a re-analysis of the deposited data

How the results depend on the processing

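With 1 library on each side, the ratios could not be recomputed without a library. No paired analysis was possible because the 2 libraries form 1 group. The contractile median of 8.86 ± 1.40 TPM (SD, n = 2) was 24.9 when TPM was rescaled over nuclear protein-coding genes and 7.88 to 9.85 with a replicate left out. The pericyte median of 4.86 ± 1.21 TPM was 13.7 after that rescaling, 3.61 in the index-based table and 4.00 to 5.71 with a replicate left out. The contractile over pericyte ratio of sums, 3.52, was 4.07 in the index-based table, 1.85 with medians, 3.27 without Des, 2.76 without Acta2, 1.78 without Tagln (chosen after seeing the data), and 3.47 to 3.57 with a replicate left out. The contractile median log2 ratio of -0.70 was -0.35 at a mean count of 100 or more, which drops Cnn1, and -0.75 to -0.63 under the other settings; the contractile minus pericyte difference of -0.18 was then 0.15. The count of 3 genes at 2-fold was 5 at 1.5-fold and 1 with TPM as deposited (Cnn1), and 2 with the nuclear protein-coding total (without Myh11), with bounds that do not overlap (without Cnn1) and at a mean count of 100 or more (without Cnn1). TPM as deposited moved the median log2 ratio of all genes to 0.10 and those of Mylk and Notch3 to -0.14 and -0.11, and the other 77 recomputed ratios of single genes stayed within counting error. The number of genes with the same highest transcript in both animals was 9, and 10 by counts in the alignment-based table. By counts in both tables it was 9. Apart from libraries left out, 14 recomputed levels of single genes moved by 1 SD or more and 16 did not. The rescaling over nuclear protein-coding genes multiplies all levels of a library by 1 factor, so it moved every member, and FPKM moved none. The index-based table moved the levels of Tagln, Pdgfrb, Notch3 and Cspg4. Of the transcript shares 13 moved and 5 did not. Depth limits Cnn1 and the minor transcripts.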

Other observations

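Genes of ion channels in the mural cell lists, which the report gives only as counts, differed in direction and were named after their values were seen. The potassium channel of pericytes formed by Kcnj8 and Abcc9 had 2.60 and 4.25 TPM in replicate 2 and 2.87 and 4.68 TPM in replicate 1, with log2 ratios of -0.20 and -0.23. The calcium-activated potassium channel subunit Kcnma1 had 26.68 TPM in replicate 2 and 25.37 TPM in replicate 1 (0.01), whereas its smooth muscle partner Kcnmb1 had 3 and 8 counts. The calcium channel Cacna1c had 48.40 TPM in replicate 2 and 33.45 TPM in replicate 1 (0.45), and its deposited bounds did not overlap. That direction is opposite to the contractile genes, but Cacna1c and Kcnma1 were both above Acta2 in both animals. In RNA of a whole gland their values cannot be assigned to mural cells. The gamma smooth muscle actin Actg2, typical of gut muscle, had 0.10 TPM in replicate 2 and 0.18 TPM in replicate 1, against 10.93 and 20.80 TPM for Acta2.

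The 2 paralogous myocardin-related factors were both present, Mrtfa with 9.70 TPM in replicate 2 and 8.07 TPM in replicate 1 (0.02) and Mrtfb with 14.27 and 11.91 TPM (0.31). Among the PDGF ligands Pdgfd had 17.53 and 16.88 TPM (-0.02) and Pdgfa 11.16 and 9.26 TPM (0.07). The Notch ligand Jag1 had 4.14 and 4.63 TPM (-0.28) and Dll4 4.13 and 5.36 TPM (-0.38). Heyl, a Notch target of mural cells, had 198 counts in replicate 2 and 358 in replicate 1 (-0.70), though its TPM bounds overlapped. Aoc3, an amine oxidase of smooth muscle that adipocytes also express, had 1090 and 2296 counts (-0.92), and its bounds did not overlap.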
